A study of Mus musculus with 6 samples.

Results

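The Zfp genes encode zinc finger proteins, and 270 of them were expressed in RAW264.7 cells, a mouse macrophage line, among 25124 genes in the deposited expression table. The genes were chosen by symbol (Zfp followed by a number and at most 1 letter, leaving out Zfp36, a regulator of mRNA decay with a different kind of finger) and selected on expression level, at 1 TPM or more in at least 3 of the 6 samples. TPM expresses reads per unit of transcript length, scaled to the library. Poly(A) RNA was sequenced from 3 samples labelled M1, which had received lipopolysaccharide at 100 ng/ml and interferon-γ at 50 ng/ml, and from 3 samples labelled M0, which had received neither. All 6 samples came from a line made with a Cas9 plasmid lacking a guide RNA, the comparison line for an E4BP4 knockout, and were grown in medium with 25 mM glucose. The labels give neither the duration of treatment nor the origin of the replicates (separate cultures or one), so the spread behind each p-value may be a technical one.

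Most Zfp proteins carry rows of Cys2-His2 fingers, short loops folded around a zinc ion, and each finger can read a few bases of DNA. Many also carry a KRAB box, a short domain that recruits the corepressor TRIM28, which in turn brings in the histone methyltransferase SETDB1 and heterochromatin proteins, and these KRAB zinc finger proteins are best known for silencing retroelements in embryonic cells. Others do quite different work, in ribosome quality control, splicing, mitosis, ubiquitin signalling or promoter binding.

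The libraries held between 15615639 and 20283180 reads in genes, and the 3 M1 libraries were the deeper ones. One TPM on a transcript of 2000 bases stood for 26.5 to 34.4 reads. All 9 macrophage markers examined, Adgre1, Cd68, Csf1r, Itgam, Ptprc, Spi1, Lyz2, Fcgr1 and Mertk, were above 1 TPM in every sample, with summed levels of 2135 to 2181 TPM in M1 and 2376 to 2593 TPM in M0. Markers of T cells, epithelium, fibroblasts and endothelium never passed 0.922 TPM, with Cd3g, Krt8 and Krt18 at 0 throughout. The 5 M1 activation genes Nos2, Cxcl10, Gbp2b, Il1b and Irf1 summed to between 7615 and 7656 TPM in M1 and to between 25.8 and 26.0 TPM in M0. In a bulk sample, fewer cells expressing a gene and less RNA per cell cannot be told apart.

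Of 390 Zfp symbols in the table, 120 stayed below the level and were left out, 22 of them at 0 in all samples. Of the 270 expressed genes, 242 reached 1 TPM in all 6 samples. Zfp811, Zfp964 and Zfp455 reached it in all M1 and no M0 samples, 14 genes in all M0 and no M1 samples, and 11 in some other combination. Those 17 genes seen in 1 group alone entered through the group where they were high, so a difference was built into them. All 17 are among the calls below. Just inside the level were Zfp775, at 0.818, 0.613 and 0.706 TPM in M1 and 1.03, 1.36 and 1.44 TPM in M0, and Zfp438, at 1.02 to 1.10 TPM in M1 and 0.990 to 1.05 TPM in M0. Just outside were Zfp105, at 0.835 to 1.15 TPM in M1 and 0.795 to 1.13 TPM in M0, and Zfp951, at 0.682 to 0.885 TPM in M1 and 0.964 to 1.23 TPM in M0.

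Zfp genes were mostly expressed at low levels. Their mean over the 6 samples had a median of 4.78 TPM, against 15.4 TPM for all 11297 genes at the same minimum level, and spanned 229-fold. In all, 52 stood at 10 TPM or more, 137 between 3 and 10, and 81 below 3. Together they made up 0.350% to 0.362% of the summed TPM of the M1 columns and 0.394% to 0.411% of that of the M0 columns. Summed TPM was 2022, 2001 and 2059 in M1 samples, against 2186, 2264 and 2210 in M0 samples, so every M1 sum lay below every M0 sum on the deposited scale. After the rescaling described below the order turned round, with sums of 2300, 2271 and 2278 in M1 and 1964, 1983 and 1946 in M0. On the deposited scale the means were 2027 ± 29.3 TPM in M1 and 2220 ± 39.8 TPM in M0 (SD, n = 3 each), and without the most abundant member, Zfp207, they were 1815 ± 31.4 TPM and 2086 ± 44.9 TPM. Replicates lay close together: the coefficient of variation of a Zfp gene had a median of 6.71% in M1 and 6.87% in M0, against 5.98% and 5.49% over all tested genes.

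Genes were compared between M1 and M0 with limma on log2(TPM + 1), with Benjamini-Hochberg adjustment over all 11297 genes, and called at an adjusted p under 0.05. On this scale 34 Zfp genes rose, 167 fell and 69 were not called. The shares, 12.6% higher and 61.9% lower, stood beside 18.7% higher and 61.5% lower over all tested genes, where 80.2% were called in either direction against 74.4% of Zfp genes. The Zfp genes had a median log2 change of -0.27, and all tested genes one of -0.31, so the median gene of the table lay lower in M1 on the deposited scale. The M1 and M0 values did not overlap for 37 Zfp genes above and 172 below, against 19.6% and 61.8% of all genes.

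Dividing the TPM columns by median-of-ratios factors, which centres the table on its typical gene, moved the median of all genes to 0.003 and that of the Zfp genes to -0.005. After this rescaling 82 Zfp genes were higher, 80 were lower and 108 were not called. Those shares are 30.4% higher and 29.6% lower, against 36.9% and 36.6% of all tested genes (73.5% called in either direction). All 34 genes called higher on the deposited scale were also higher after rescaling. That direction was fixed in advance, because the factors (0.879 to 0.904 in M1, 1.11 to 1.14 in M0) raise every M1 value and lower every M0 value. Of the 167 called lower, 80 were lower on both scales, 82 were not called after rescaling, and 5 turned to higher (Zfp598, Zfp622, Zfp410, Zfp277 and Zfp91). Zfp277, which in mouse cells helps Polycomb proteins repress a cell cycle inhibitor locus, stood at 16.3, 15.2 and 17.4 TPM in M1 and 18.8, 18.6 and 18.2 TPM in M0, with log2 changes of -0.18 before and 0.15 after rescaling. Its deposited-scale call was lost without M1 replicate 2 (-0.13, limma adjusted p 0.096). Another 43 genes not called on the deposited scale were higher after rescaling.

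The authors' deposited table gives its own log2 fold changes and adjusted p-values, in which 35.6% of 10769 tested genes with a value were higher in M1 and 32.2% lower at an adjusted p under 0.05 (67.8% in all). Of the 82 Zfp genes higher after rescaling, that table had 70 as higher and 10 as not called. Of the 80 lower after rescaling, it had 60 as lower and 17 as not called. Set against the calls after rescaling, no Zfp gene had an opposite call in that table. Set against the calls on the deposited scale, 3 did (Zfp598, Zfp622 and Zfp91, higher in the authors' deposited table), 97 of the 167 lower genes were not called there, and 60 were lower. The authors' deposited table lists another transcript for 72 of them and has no row for 11.

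Large changes were few among the Zfp genes. At a fold of 2 or more between mean TPM values, 5 were called higher, against 7.34% of all tested genes, and 28 lower, against 16.4%, with 23.7% of all genes past this fold in either direction.

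**Figure D1:**
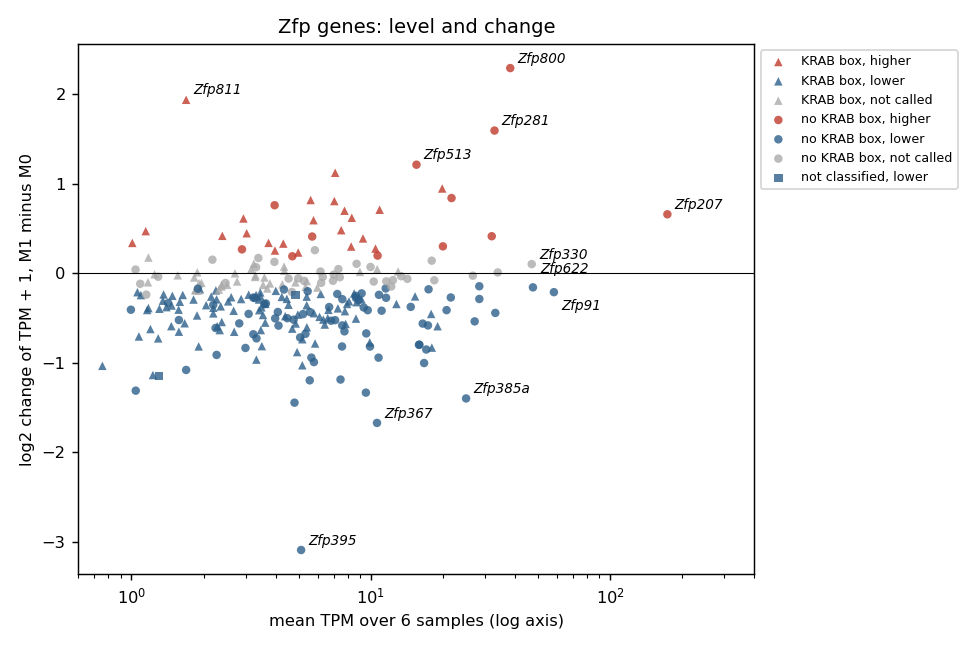
Each point is 1 of the 270 Zfp genes, by its mean TPM over the 6 samples (x, log axis) and its fitted log2 change of TPM + 1, M1 minus M0 (y). Colours give the call at an adjusted p under 0.05 and shapes whether a KRAB box was found by the profile; most points lie between 0 and -1, and Zfp800, Zfp811 and Zfp281 stand highest and Zfp395 lowest.

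Zfp800 had the largest increase on the log2(TPM + 1) scale; by ratio of means Zfp811, a low gene described below, came first. Its levels were 62.8, 62.4 and 67.2 TPM in M1 samples, against 12.04, 12.92 and 12.05 TPM in M0 samples, with no overlap. The protein, whose human counterpart holds back enteroendocrine differentiation in gut cells, has 7 fingers and no KRAB box that was found. The fold was 5.20, and on log2(TPM + 1) the gene rose by 2.29 ± 0.0544 (SE), with a limma adjusted p of 1.14e-11. By mean level over the 6 samples it was among the 8 most abundant Zfp genes. Its promoter window, 250 bases before to 50 after the transcription start, is given here because it belongs to the abundant gene with the largest increase on that scale. It held no match to any of the motifs searched below.
Zfp800, chr6:28261875-28262174, strand -: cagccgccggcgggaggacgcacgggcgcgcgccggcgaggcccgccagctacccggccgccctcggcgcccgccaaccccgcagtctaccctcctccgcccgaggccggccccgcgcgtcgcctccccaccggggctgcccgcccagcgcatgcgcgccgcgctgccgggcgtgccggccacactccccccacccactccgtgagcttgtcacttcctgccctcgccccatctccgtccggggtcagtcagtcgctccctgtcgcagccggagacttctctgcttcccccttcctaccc

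Zfp281, a factor with 3 fingers that in mouse embryonic stem cells works with the NuRD complex on pluripotency genes, was the other abundant gene with a large increase. Levels were 51.0, 48.3 and 50.2 TPM in M1, against 16.2, 16.1 and 15.3 TPM in M0. The lowest M1 sample was far above the highest M0 sample, with a fold of 3.14 and an increase of 1.59 ± 0.0511 (SE) on the log2 scale, at a limma adjusted p of 1.56e-10. Zfp513, linked to photoreceptor gene expression in the retina, followed at 21.9, 21.2 and 23.0 TPM in M1 and 10.0, 8.82 and 8.12 TPM in M0, a fold of 2.45.

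Zfp811 had a low level in M1 and was nearly absent in M0. It stood at 3.38, 3.16 and 3.26 TPM in M1 samples, against 0.126, 0.0750 and 0.150 TPM in M0 samples, which corresponds to 568 reads over the 3 M1 libraries and 18 over the 3 M0 libraries. The ratio of means was 27.9, the largest of any Zfp gene in this direction, while the log2 change of TPM + 1 was 1.93 because adding 1 compresses low values. With 0.1 added in place of 1 it was 3.97, against 2.37 for Zfp800, and with limma-voom on reads 4.74, against 2.36 for Zfp800. The log2 fold change in the authors' deposited table is 5.18. Zfp811 lies on chromosome 17, has 14 fingers and carries a KRAB box, and it entered the set through its M1 values alone.

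The remaining 6 of the 10 largest increases were between 1.84-fold and 2.46-fold. Zfp945, with 18 fingers and a KRAB box, stood at 9.81, 10.4 and 10.1 TPM in M1 and 4.25, 4.108 and 3.95 TPM in M0. Zfp961, also a KRAB gene, stood at 26.9, 25.8 and 26.6 TPM in M1 and 13.5, 13.8 and 12.6 TPM in M0. Zfp263, a factor with 9 fingers, stood at 28.6, 28.9 and 26.8 TPM in M1 and 15.1, 16.6 and 14.2 TPM in M0. In each of the 3 the groups were well apart. The KRAB genes Zfp719 and Zfp160 averaged 7.42 ± 0.249 and 9.22 ± 0.299 TPM in M1, and 3.79 ± 0.450 and 4.86 ± 0.228 TPM in M0 (SD, n = 3 each).

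Zfp213 closed the list at 5.54, 4.795 and 5.32 TPM in M1, against 2.43, 3.39 and 2.29 TPM in M0 (1.93-fold). In GENCODE's annotation 56.6% of its exon bases lie in Gm26695 as well, and no source used here says whether counting was stranded, so reads of the pair cannot be told apart. Among those of the 20 largest changes that have a window in the promoter comparison below, Zfp213 was the one with letters of both an interferon-stimulated response element and a gamma-activated sequence, the classes of site that interferon-activated IRF and STAT factors bind. The capitals in the sequence mark those letters, TTCNNNGAA first, and then TTTC repeated after any 2 bases, read on the opposite strand.
Zfp213, chr17:23564177-23564476, strand -: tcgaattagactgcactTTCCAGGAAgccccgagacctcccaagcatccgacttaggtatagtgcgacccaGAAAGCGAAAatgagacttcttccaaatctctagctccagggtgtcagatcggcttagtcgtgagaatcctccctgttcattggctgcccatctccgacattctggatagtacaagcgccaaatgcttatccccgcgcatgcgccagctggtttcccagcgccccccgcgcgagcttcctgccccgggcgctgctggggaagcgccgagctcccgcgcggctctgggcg

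Another 24 Zfp genes rose by 0.19 to 0.71 on the log2 scale. The profile described below found a KRAB box in 17 of them, beside 147 of 268 over all Zfp genes read. The 24 include Zfp207, Zfp568 and Zfp809, described below with their roles, and the low genes Zfp964 and Zfp455. The 69 genes not called lay between -0.24 and 0.26 on the deposited scale.

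Zfp395 had the largest decrease. It stood at 0.226, 0.289 and 0.341 TPM in M1 samples, against 9.40, 10.5 and 9.97 TPM in M0 samples, and 59 reads in the 3 M1 libraries stood against 1849 in the 3 M0 libraries. The protein was first described as binding a regulatory stretch of the Huntington's disease gene, and its human form has been tied to interferon-stimulated genes. Mean TPM was 34.8-fold higher in M0, and log2(TPM + 1) changed by -3.09 ± 0.0774 (SE), with a limma adjusted p of 1.79e-11. Zfp395 reached 1 TPM in M0 samples alone, so a difference was built in by the selection and the p-value is a description only.

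Zfp367 and Zfp385a were more abundant genes that fell. Zfp367 had 4.10, 4.81 and 4.76 TPM in M1 and 16.1, 17.3 and 16.6 TPM in M0, a log2 change of -1.67. Zfp385a, which binds p53 and certain mRNAs, had 13.1, 12.6 and 14.3 TPM in M1 and 36.3, 36.8 and 37.0 TPM in M0, a log2 change of -1.40. In both, each M1 sample was below each M0 sample by a wide gap. Zfp362, a relative of fly rotund, fell by 1.45 on the log2 scale, at 2.12 ± 0.312 TPM in M1 and 7.48 ± 0.605 TPM in M0 (SD, n = 3 each). Zfp652, a partner of the corepressor CBFA2T3, fell by 1.33, at 4.98 ± 0.236 TPM in M1 and 14.1 ± 1.17 TPM in M0.

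Zfp41 and Zfp219 fell by 1.20 and 1.19. Zfp219, a partner of Sox9 in cartilage, stood at 4.14, 4.16 and 4.22 TPM in M1 and 10.9, 10.8 and 10.6 TPM in M0, the tightest replicates among the decreases named. Zfp469 (its human counterpart is mutated in brittle cornea syndrome), Zfp69 (a diabetes susceptibility gene in mice) and Zfp608 (a repressor of Rag genes in thymocytes) were low in M1, at means of 0.432, 0.394 and 0.732 TPM, and stood at 2.18, 2.06 and 2.65 TPM in M0. These 3 and Zfp395 entered the set through M0 samples alone, so a difference was built into them. These 10 increases and 10 decreases are the largest on log2(TPM + 1) among called genes that met 2 further conditions. Their groups did not overlap, which was thus fixed by the choice, and their higher mean was 2 TPM or more. All 20 kept their direction and their call after rescaling. For the 10 increases that direction was fixed in advance, since rescaling raised M1 values and lowered M0 values. One gene whose higher mean was under 2 TPM, Zfp618, was named after its values were seen. Its decrease lay within the range of the 10 decreases, at 0.123, 0.207 and 0.188 TPM in M1 and 1.70, 2.07 and 1.97 TPM in M0, a log2 change of -1.31.

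The other 157 genes that fell had log2 changes from -1.31 to -0.15, with a median of -0.41. Of these, 89 carry a KRAB box by the profile, beside 147 of 268 over all Zfp genes read. After rescaling 70 of the 157 were still called lower, 82 were not called and 5 were higher.

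**Figure D2:**
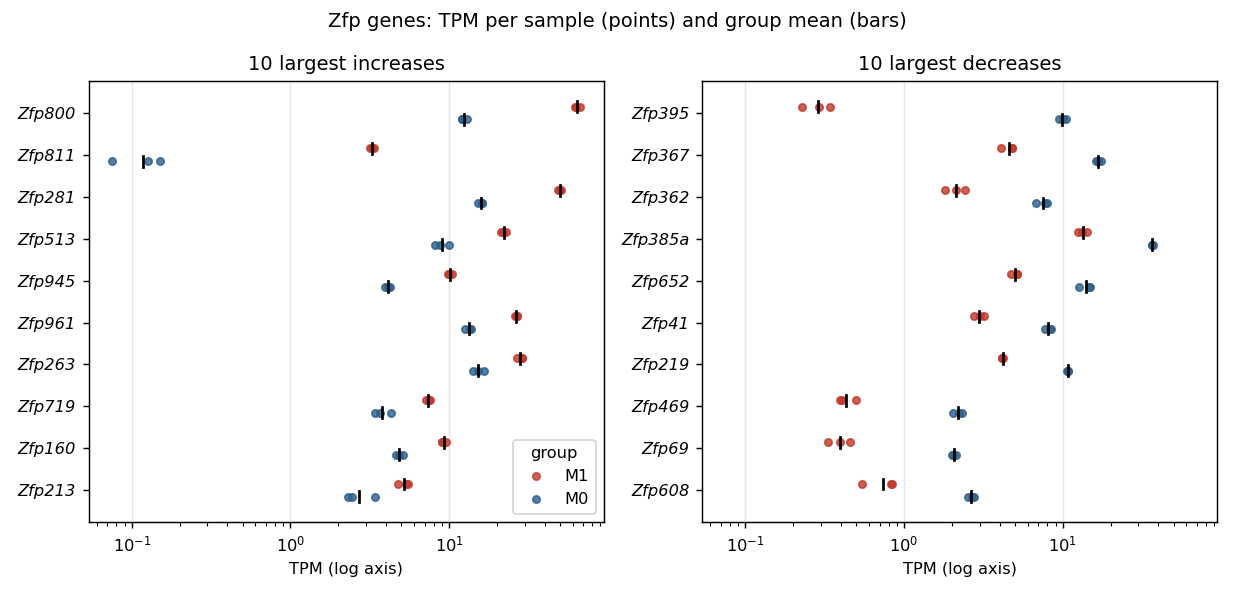
TPM on a log axis for the 10 largest increases (left) and 10 largest decreases (right), with 1 point per sample, M1 in red above M0 in blue, and a bar at each group mean (n = 3 each). Only called genes without overlap between the groups could enter these lists. Zfp811 in M0 and Zfp395 in M1 lie below 0.4 TPM.

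The 8 most abundant Zfp genes held 21.9% of the summed TPM of all 270. Zfp207, or BuGZ, which takes part in spindle assembly and splicing, was at 217.6, 210.5 and 208.4 TPM in M1 samples, against 143.4, 131.4 and 128.3 TPM in M0 samples. It rose by 0.66 ± 0.0503 (SE) on the log2 scale, at a limma adjusted p of 2.61e-07. Zfp91, a ubiquitin ligase of the non-canonical NF-κB pathway, came second at 52.1, 52.2 and 57.2 TPM in M1 and 58.8, 64.5 and 64.3 TPM in M0. Its log2 change was -0.21 on the deposited scale and 0.13 after rescaling, both called, so its direction depends on the scale.

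Zfp330, Zfp146 and Zfp706 were also among the abundant genes, and the first pair were close to level. The nucleolar Zfp330 was at 49.2, 48.6 and 48.1 TPM in M1 and 43.2, 46.1 and 46.7 TPM in M0, with a log2 change of 0.10 that was not called (limma adjusted p 0.0741). Zfp146, made up almost wholly of fingers, was at 34.0 ± 0.583 TPM in M1 and 33.8 ± 1.11 TPM in M0 (SD, n = 3 each), with overlapping groups. After rescaling both were called higher, by 0.44 and 0.35. Zfp706, which in mouse embryonic stem cells represses Klf4 translation, was at 27.9 ± 0.652 TPM in M1 and 38.3 ± 1.59 TPM in M0 and fell by 0.44, a call that was lost after rescaling (-0.11). The other abundant genes were Zfp622, described next, and Zfp800 and Zfp281.

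Zfp598, Zfp622 and Zfp593 act on the ribosome or its assembly. Zfp598, the ligase that marks collided ribosomes, was at 27.1, 25.8 and 27.9 TPM in M1 and 28.7, 29.7 and 31.2 TPM in M0. Zfp622, a maturation factor of the large subunit, was at 43.8, 45.8 and 45.0 TPM in M1 and 48.5, 49.1 and 53.1 TPM in M0. Their log2 changes were -0.15 and -0.16 on the deposited scale and 0.19 and 0.18 after rescaling, called in both cases, with opposite signs. The deposited-scale call of Zfp598 was lost without M1 replicate 1 or 2 or without M0 replicate 2 or 3 (log2 changes of -0.11 to -0.15, limma adjusted p 0.057 to 0.12), and that of Zfp622 without M0 replicate 3 (-0.12, limma adjusted p 0.067). Zfp593, whose yeast relative exports large subunits, was at 12.01 ± 0.300 TPM in M1 and 12.74 ± 0.654 TPM in M0 (SD, n = 3 each) and was not called on the deposited scale but was higher by 0.24 after rescaling. Of its exon bases, 77.9% also lie in E130218I03Rik.

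Among 5 genes known for silencing retroelements or imprinted loci, 2 rose and 1 fell on the deposited scale. The shares were 40% and 20%, beside 18.7% and 61.5% of all tested genes. After rescaling 3 were higher, or 60% beside 36.9%. Zfp568, which in mouse silences a placental Igf2 promoter, was at 9.66, 9.66 and 10.2 TPM in M1 and 5.65, 5.83 and 5.58 TPM in M0 and rose by 0.70. Zfp809, which in mouse embryonic stem cells recognises the primer binding site of murine leukaemia virus, was at 10.1, 10.1 and 11.7 TPM in M1 and between 7.73 and 8.0 TPM in M0 and rose by 0.39 (limma adjusted p 0.000356). Neither gene's groups overlapped, and both rose on either scale. Zfp445, a keeper of imprints, was at 14.9 ± 0.573 TPM in M1 and 20.8 ± 1.25 TPM in M0 (SD, n = 3 each) and fell by 0.46, a call not made after rescaling (-0.13). Zfp638, a partner of the HUSH complex, had overlapping groups, with log2 changes of -0.03 before and 0.31 after rescaling. Zfp932 was not called on either scale and shares 45.2% of its 50-base stretches with its relative Gm15446, so reads could fall to either. Zfp57, Zfp708 and Zfp819 stayed below the level, with highest values of 0.0490, 0.865 and 0.0340 TPM.

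Of 13 genes with roles in chromatin complexes or promoter binding, 1 rose, 7 fell and 5 were not called on the deposited scale. The shares were 7.69% higher and 53.85% lower, beside 18.7% and 61.5% of all tested genes. After rescaling 6 were higher and 2 lower, or 46.15% and 15.38% beside 36.9% and 36.6%. Zfp281 was the one that rose on both scales, and Zfp219 and Zfp687 fell on both. Zfp687, part of a complex with ZMYND8 and Zfp592, was at 6.15, 5.54 and 5.96 TPM in M1 and 8.85, 9.25 and 9.82 TPM in M0, a log2 change of -0.58. Its partner Zfp592 was at 4.28 ± 0.739 TPM in M1 and 5.07 ± 0.215 TPM in M0 (SD, n = 3 each), with overlapping groups and no call, although without M1 replicate 3 it was called lower (-0.31, limma adjusted p 0.0083). Zfp143, an activator bound at many promoters, was at 8.28, 7.84 and 7.80 TPM in M1 and 10.4, 10.5 and 11.2 TPM in M0. It fell by 0.38 on the deposited scale and was not called after rescaling (-0.07).

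The other chromatin-linked genes moved little. Zfp148, Zfp516 and the SUMO ligase Zfp451 fell by 0.29, 0.30 and 0.41 on the deposited scale, and none was called after rescaling. Zfp410, which in mouse and human cells activates Chd4, was at 10.8 ± 0.256 TPM in M1 and 12.3 ± 0.324 TPM in M0 (SD, n = 3 each), with log2 changes of -0.17 before and 0.15 after rescaling. Its call was lost without M1 replicate 2 (-0.17, limma adjusted p 0.054) or M0 replicate 2 (-0.15, limma adjusted p 0.065). Chd4 itself, also one of the corepressors described below, was at 55.7, 56.3 and 71.4 TPM in M1 and 74.97, 90.1 and 86.9 TPM in M0, a log2 change of -0.46 that was not called after rescaling (-0.11). Zfp217, Zfp335, Zfp644 and Zfp653 were not called on the deposited scale and were higher by 0.17 to 0.26 after rescaling. Without M1 replicate 3, Zfp217 was called lower on the deposited scale (-0.21, limma adjusted p 0.0091). Reads of Zfp335 overlap those of Pcif1 over 28.3% of its exon bases. Zfp711 and Zfp827 stayed below the level.

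Of 6 genes linked to RNA, splicing or mitosis, Zfp207 rose, 4 fell and Zfp830 was not called (-0.09, and higher by 0.23 after rescaling). The shares were 16.7% higher and 66.7% lower, near the 18.7% and 61.5% of all tested genes. Without M0 replicate 1, Zfp830 was called lower (-0.18, limma adjusted p 0.023). Besides Zfp385a, the double-stranded RNA binder Zfp346 fell by 0.52, at 3.73 ± 0.281 TPM in M1 and 5.78 ± 0.428 TPM in M0. Zfp318, needed for IgD expression in B cells, fell by 0.59, at 2.91, 2.99 and 3.36 TPM in M1 and 4.68, 5.72 and 5.02 TPM in M0. Both stayed lower after rescaling, by log2 changes of -0.23 and -0.31. Zfp326, a link between splicing and transcript elongation, fell by 0.42 on the deposited scale and was not called after rescaling.

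Of 8 genes with immune or signalling roles, none rose on the deposited scale and 4 fell: Zfp395, Zfp91, Zfp30 and Zfp467, which is 50.0% beside 61.5% lower over all genes. After rescaling 3 of the 8 were higher, Zfp91 among them, and 3 lower, or 37.5% each, beside 36.9% and 36.6% of all genes. Zfp30, a regulator of neutrophil chemokine output in mouse airways, was at 0.833, 1.09 and 0.987 TPM in M1 and 1.90, 2.12 and 1.88 TPM in M0, a log2 change of -0.59. Zfp467, which tips stromal cells toward fat, was at 7.22, 6.98 and 7.17 TPM in M1 and 13.9, 10.5 and 11.7 TPM in M0, a log2 change of -0.67. Both were also lower after rescaling. Zfp110 and Zfp369, relatives that bind a neurotrophin receptor, and Zfp341, whose human counterpart drives STAT3 transcription, had overlapping groups; Zfp110 was higher by 0.33 after rescaling. Zfp384 was at 17.9, 19.0 and 19.8 TPM in M1 and 17.8, 17.0 and 16.3 TPM in M0, just missing the threshold on the deposited scale (limma adjusted p 0.0515) and higher by 0.47 after rescaling. It passed without M1 replicate 1 (0.18, limma adjusted p 0.035) or M0 replicate 1 (0.17, limma adjusted p 0.034). Zfp366 was listed at 0 in every sample.

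A KRAB box was looked for in the longest reading frame of each gene's GENCODE transcripts, available for 268 of the 270. A narrow letter pattern found it in 117, and a profile built from those matches found it in 147. The scores left a clear gap, from 2.73 for the lowest gene taken to -15.8 for the highest left out. By the narrow pattern 21 KRAB genes rose and 70 fell, against 13 and 95 of 151 without the box. By the profile 22 KRAB genes rose and 90 fell, against 12 and 75 of 121 without it. The median log2 changes, -0.26 and -0.27 by the profile, were alike, and the backgrounds of 18.7% higher and 61.5% lower apply to both.

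The KRAB genes were expressed at lower levels and, on log2(TPM + 1), which compresses low values, spread over a narrower range of changes. With 0.1 added in place of 1 the KRAB gene Zfp811 (3.97) stood above Zfp800 (2.37), which has no box. At the other end Zfp395 (-4.71), also without the box, stayed below the KRAB gene Zfp69 (-2.14). By the profile their mean level had a median of 3.46 TPM, against 7.24 TPM without the box, and their log2 changes ran from -1.14 to 1.93, against -3.09 to 2.29. After rescaling 36 of them were higher and 39 lower, which is 51.0% called, against 46 and 40, or 71.1%, of genes without the box (background 73.5%). By the narrow pattern these shares were 53.9% and 64.9%. The difference between the classes was not tested, and level moved with it: after rescaling 46.9% of Zfp genes under 3 TPM were called, 60.6% of those from 3 to 10 TPM and 78.8% of those at 10 TPM or more. Of the 52 genes at 10 TPM or more, 29 were higher and 12 lower after rescaling, while of the 81 under 3 TPM, 11 were higher and 27 lower.

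The fingers themselves were counted with a Cys2-His2 pattern. Zfp genes had a median of 10 fingers, from 0 to 37, with 12 in KRAB genes and 7 in the others. Zfp503, Zfp703, Zfp839 and Zfp330 had no match. The number of fingers and the log2 change had a Spearman rho of 0.124 over 268 genes, and mean level and log2 change one of 0.0861, both given as descriptions of genes that share libraries.

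**Figure D3:**
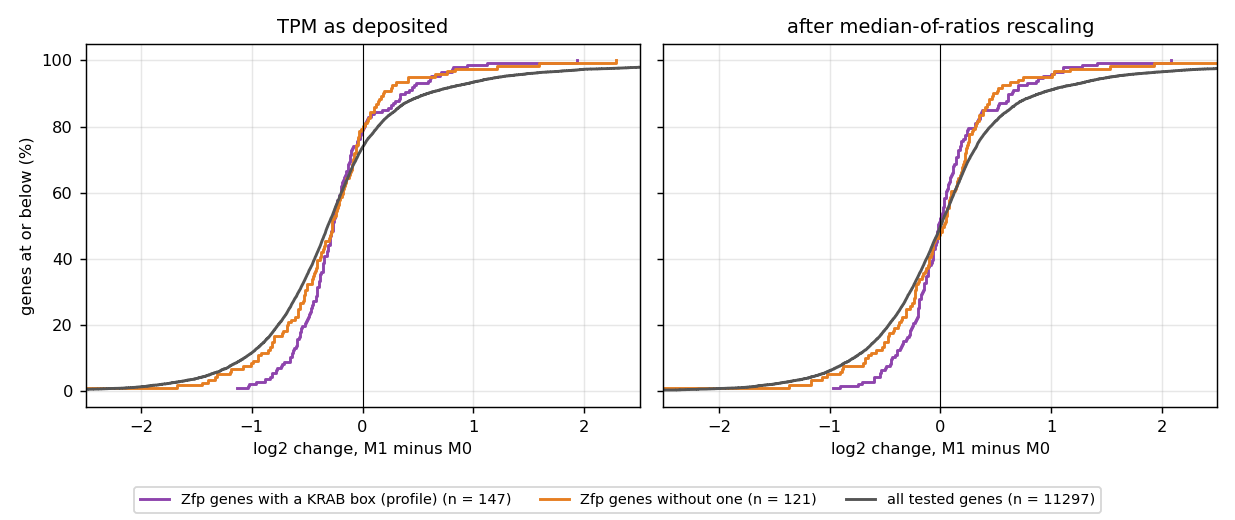
Share of genes (y, in percent) at or below each log2 change, M1 minus M0 (x), for Zfp genes with a KRAB box by the profile, Zfp genes without one and all tested genes, on TPM as deposited (left) and after median-of-ratios rescaling (right). Both Zfp curves are steeper than that of all genes, the KRAB curve most of all. Changes are of log2(TPM + 1), which compresses low values, and median levels were 3.46 TPM (KRAB), 7.24 TPM (no KRAB) and 15.4 TPM (all). Whether level accounts for the steepness was not tested. The medians of -0.26 (KRAB), -0.27 (no KRAB) and -0.31 (all) at left lie within 0.05 of 0 at right.

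Of 25 corepressors and related genes that KRAB proteins work through, 3 rose and 20 fell on the deposited scale, or 80.0% lower beside 61.5% of all tested genes. After rescaling 4 were higher and 10 lower, or 16.0% and 40.0% beside 36.9% and 36.6%. The share lower was then near the background, and the share higher was below it. Trim28, the scaffold that binds KRAB boxes, was at 98.7, 100.3 and 108.8 TPM in M1 and 131.6, 144.8 and 140.3 TPM in M0, a log2 change of -0.43 that was not called after rescaling (-0.09). Setdb1, its histone H3 lysine methyltransferase, was at 14.8, 15.0 and 17.1 TPM in M1 and 25.4, 26.5 and 26.2 TPM in M0, and was lower on both scales (-0.70 and -0.37). Uhrf1 and Dnmt1, which maintain DNA methylation through replication, had the largest decreases of the list, -1.70 and -1.44. Uhrf1 was at 32.4 ± 0.134 TPM in M1 and 107.4 ± 4.82 TPM in M0 (SD, n = 3 each). Morc3 and Pphln1, a HUSH subunit, rose by 0.96 and 0.36, and Morc3 was at 64.7, 61.0 and 61.7 TPM in M1 and 30.9, 32.7 and 31.1 TPM in M0.

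Promoters were compared in the RefSeq windows of the 223 Zfp genes, and of 8559 tested genes in all, whose RefSeq start lay within 100 bases of the deposited transcript start. A sequence feature that the choice of genes did not use stood out by eye and was then counted, so it was picked after the sequences were seen. The letters ACTACA followed, after any 2 bases, by TCCC are the core of the site that Zfp143 binds, and they were found on either strand in 38 of 223 Zfp promoters, or 17.0%, against 4.91% of all 8559. The share was 22.3% in KRAB genes by the profile (29 of 130), 9.68% in Zfp genes without the box (9 of 93) and 4.58% in the other tested genes. These promoters are not independent, since many of the carriers are neighbouring relatives on chromosomes 7 and 13.

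A choice of these stretches is shown, 30 bases each, turned so that the core reads forward and in capitals. They show how the same letters recur in neighbouring Zfp genes and in Zfp genes on other chromosomes. The first 5 come from 1 cluster on chromosome 13, the next 4 from chromosome 7, and the last 2 from chromosomes 4 and 11. The strand is the one on which the letters read.
Zfp748, chr13:67553159-67553188, strand +: aacggaagACTACACTTCCCacaagtctgt
Zfp729a, chr13:67637796-67637825, strand +: gaaccaggACTACACTTCCCacaagtcagt
Zfp738, chr13:67683549-67683578, strand +: gggacgggACTACACTTCCCacaagtcagt
Zfp874a, chr13:67451638-67451667, strand +: tgctgcagACTACATTTCCCacaagtctgt
Zfp874b, chr13:67484269-67484298, strand +: tgctacagACTACATTTCCCacaagtctgt
Zfp146, chr7:30169852-30169881, strand +: gactttggACTACACTTCCCacaaggcact
Zfp566, chr7:30090565-30090594, strand -: tcggactgACTACATTTCCCagagggctcc
Zfp383, chr7:29908468-29908497, strand +: aatcgcggACTACATTTCCCagaagcgttc
Zfp128, chr7:12881152-12881181, strand -: acactgagACTACAATTCCCagaaggccac
Zfp189, chr4:49521144-49521173, strand -: gcaagcgaACTACATTTCCCggaatgcata
Zfp692, chr11:58307013-58307042, strand +: taaggctaACTACAATTCCCggcaggcttt

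The genes with this core moved in both directions. Of the 38, 3 rose, 22 fell and 13 were not called on the deposited scale. The shares were 7.9% higher and 57.9% lower, beside 18.7% and 61.5% of all tested genes. After rescaling 9 were higher and 7 lower, or 23.7% and 18.4% beside 36.9% and 36.6%. Their median log2 change was -0.21, against -0.29 for the 185 Zfp promoters without the core. Zfp143 itself is described above.

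Other motifs were counted on both strands of the same windows. The gamma-activated sequence TTCNNNGAA was in 37 Zfp promoters (16.6%, against 6.88% of all), and in 9 of them it shared letters with the Zfp143 core. Its carriers comprised 8 genes that rose, 18 that fell and 11 not called on the deposited scale, or 21.6% higher and 48.6% lower beside 18.7% and 61.5% of all genes. After rescaling 14 were higher and 8 lower, or 37.8% and 21.6% beside 36.9% and 36.6%. The interferon response letters, TTTC repeated after any 2 bases, were in 5 (2.24%, against 3.58%), the NF-κB letters, GGG and after any 2 bases TTTCC, in 4 (1.79%, against 1.73%) and the cyclic AMP response element TGACGTCA in 7 (3.14%, against 3.49%). Zfp promoters were also poorer in CpG, with a median of 15 CpG in the 300-base window against 22 over all tested genes. A match of letters is a description and says nothing of whether a factor binds there.

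Zfp genes lie in clusters, and in several of these, though not in all, some neighbours rose while others fell. Counts of genes that rose or fell are on the deposited scale, where 18.7% of all genes were higher and 61.5% lower. Joining Zfp genes whose starts lay within 500 kb gave 12 runs of 5 or more, with 117 of the 270 genes and 91 of the KRAB genes by the profile. The largest, on chromosome 17 from 21.0 to 23.6 Mb in mm10 coordinates, held 20 genes, of which 4 rose, 12 fell and 4 were not called; after rescaling 7 were higher and 7 lower. It contains Zfp945, Zfp160 and Zfp213, 3 of the 10 largest increases, and also genes down to a log2 change of -0.96. A run of 12 further along chromosome 17 holds Zfp811, beside 8 genes that fell, and after rescaling had 2 higher and 2 lower.

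On chromosome 13 a run of 17 genes, all with a KRAB box by the profile, spans 67.1 to 67.8 Mb, and 2 rose, 10 fell and 5 were not called. Its changes were small, from -0.59 to 0.45, and after rescaling 2 were higher and 2 lower. On chromosome 7, from 29.8 to 30.2 Mb, a run of 14 holds Zfp568 at the top (0.70) together with Zfp30 near the bottom (-0.59), and after rescaling had 6 genes higher and 3 lower. A run of 10 at 127.2 to 127.9 Mb on the same chromosome had no gene that rose and 8 that fell, with changes from -0.62 to -0.04, and after rescaling 2 were higher and 2 lower. Runs starting at 4.9, 12.5, 24.1 and 27.7 Mb there also had no gene that rose, and 4, 4, 5 and 6 that fell. After rescaling each of these had 1 or 2 genes higher and 1 to 3 lower. Chromosome 7 as a whole held 68 Zfp genes, of which 3 rose and 48 fell (4.41% and 70.6%), while after rescaling 15 were higher and 21 lower (22.1% and 30.9%, beside 36.9% and 36.6% of all genes). In the run of 6 on chromosome 8, 2 genes rose and 3 fell. After rescaling 3 were higher and none lower, beside 36.9% and 36.6% of all genes. It was the one run with none lower then, and with so few genes this is a description only.

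**Figure D4:**
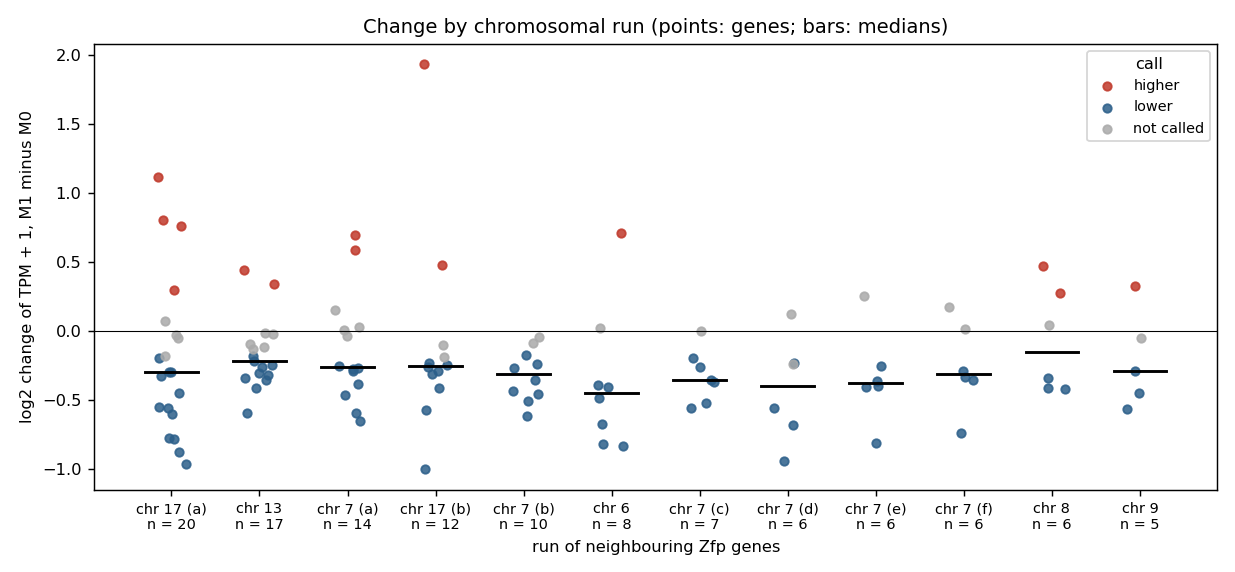
Log2 change of TPM + 1, M1 minus M0 (y), of every Zfp gene in the 12 runs of neighbouring genes (x, ordered by number of genes n), with colours for the call and a bar at each run's median. Values are on the deposited scale, where medians lie between -0.15 and -0.45 in every run, and the runs on chromosome 17 hold the highest points, up to 1.93.

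Near-identical copies and overlapping genes affect some of these values. In all, 21 Zfp genes shared at least 25% of their 50-base stretches with another gene and 15 had at least 25% of their exon bases in another gene. Without both kinds, 241 remained, of which 31 rose, 151 fell and 59 were not called, with a median log2 change of -0.27.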

How the data were processed

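RNA from 3 M1 and 3 M0 samples was compared. Per the file headers, the authors deposited a table of TPM values and another of log2 values, which also gives their fold changes on the log2 scale and the p-values of M1 against M0, raw and adjusted. STAR 2.7.5a, HOMER 4.11.1, bcl2fastq, DESeq2 and mm10 appear without roles in the submitters' processing notes. TPM times length came out as whole multiples of one value per library (within 0.1) for 99.79% to 99.99% of values above 0, which gave reads per gene and depth: 19738950, 20283180 and 18666940 reads in M1 and 18110568, 18104946 and 15615639 in M0, which was between 83.5% and 86.7% of each header total. Read numbers cover counting error only.

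All 11297 genes that reached 1 TPM in 3 or more samples were fitted with limma 3.58.1 (trend, robust; R 4.3.3) on log2(TPM + 1), with group as the only term, and p-values were adjusted by Benjamini-Hochberg over all of them. Fold changes on this scale understate those of low genes; folds are ratios of mean TPM. The procedure was also run on simulated data in which a small share of genes changed, as many up as down. In the real data most genes were called, so that run cannot speak to the choice of scale. Alternatives were another pseudocount, no filter, median-of-ratios and upper-quartile rescaling, limma-voom on the recovered reads, a replicate block, and leaving out each sample. Genes were named by a rule: the 10 largest changes each way (groups not overlapping, and 2 TPM or more on average in the group with the higher level), the 8 most abundant, those with opposite calls after rescaling, and role lists. The members, the lists and the rule were chosen with earlier results of these data known.

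The KRAB pattern was to be read from RefSeq proteins, which were not used here; the longest reading frames of GENCODE M21 (mm10) transcripts served instead, and the profile (41 residues, from 115 matches) was added after the narrow pattern was seen to miss boxes. Promoter sequences are from RefSeq GRCm38.p6, gene coordinates from the deposited table. The authors' fold changes and adjusted p-values are quoted as deposited.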

Additional observations from a re-analysis of the deposited data

How the results depend on the processing

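Scaling was the choice that moved most results. With median-of-ratios rescaling the calls over all genes were 4173 higher and 4131 lower, against 2111 and 6944 as reported. Zfp genes then had 82 higher and 80 lower, KRAB genes by the narrow pattern 32 lower, genes without the box 51 higher and 47 lower, and corepressors 10 lower. Upper-quartile rescaling gave 23 higher among genes without the box. The median log2 change of the Zfp genes, -0.27 as reported, was -0.35 with a pseudocount of 0.1, -0.005 with median-of-ratios rescaling, -0.16 with upper-quartile rescaling and -0.37 with limma-voom. The cause was not tested. Median-of-ratios rescaling turned the sign of 18 named genes, 14 of them called on one scale or both, with log2 changes of 0.31 for Zfp638, 0.26 for Zfp653, 0.26 for Zfp335, 0.24 for Zfp593, 0.23 for Zfp830, 0.22 for Zfp644, 0.19 for Zfp598, 0.17 for Zfp217, 0.18 for Zfp622, 0.15 for Zfp410, 0.15 for Zfp277, 0.13 for Zfp91, 0.017 for Zfp148 and 0.011 for Zfp516. The other 4, Zfp341, Zfp932, Zfp369 and Zfp592, were called on neither scale. It also lost 6 calls with no turn of sign and gained 5. Upper-quartile rescaling lost 6 calls (Zfp598, Zfp622, Zfp410, Zfp277, Zfp91 and Zfp516), gained 4 (Zfp384, Zfp330, Zfp110 and Zfp146) and turned the sign of 7 genes, none of them called. Limma-voom gained Zfp217 and Zfp592, both lower (adjusted p 0.0073 and 0.0097). Without a filter, and with a pseudocount of 0.1, all 57 named Zfp genes and 6 corepressors kept their direction and side of the threshold.

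Leaving out each sample in turn gave 33 to 36 Zfp genes higher and 149 to 167 lower, with medians from -0.29 to -0.26. Over all genes the ranges were 1990 to 2076 higher and 6606 to 6997 lower; KRAB genes by the narrow pattern gave 20 to 22 and 59 to 71, genes without the box 12 to 14 and 87 to 94, and corepressors 3 and 18 to 20. Among named genes, 8 fits lost a call (Zfp598, Zfp622, Zfp410, Zfp277) and 5 gained one (Zfp384, Zfp830, Zfp217, Zfp592), with the values given above. The labels do not say whether the replicate numbers pair the samples. Deviations from group means correlated at 0.0714, -0.0757 and 0.0368 for same-numbered samples. For differently numbered ones they correlated at -0.179 to 0.152. With 3 samples in each group these values cannot decide whether the samples were paired. A replicate block gave 35 Zfp genes higher and 164 lower, and among named genes it changed 1 call, that of Zfp592, which passed at a limma adjusted p of 0.044. Depth limits the lowest genes: 3 Zfp genes had fewer than 50 reads in a group, and the median gene had 652 reads over the M1 libraries and 822.5 over the M0 libraries.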
